A study of Drosophila melanogaster and Drosophila pseudoobscura and Drosophila virilis with 4 samples.

Results

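The strongly open peaks are the regions of open chromatin that stood high, and less than 2-fold apart in height, in eye-antennal discs of 3 Drosophila species. A peak was counted among them when its smallest normalized value over 4 libraries was at least 50 RPKM (reads scaled to the length of the peak in kilobases and to the depth of the library, as deposited) and its largest value was below 2 times the smallest. By this rule 869 of the 19424 peaks of the series were strongly open, or 4.47%. Because the 4 heights of each peak chose these regions, their heights and ratios are given as a description and were not tested.

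The libraries were made by FAIRE-Seq, in which crosslinked and sonicated chromatin is extracted with phenol and chloroform and the DNA left free of protein is sequenced. They came from eye-antennal imaginal discs of wandering larvae in the third instar, raised at 25 degrees Celsius. One library was made from wild-type D. pseudoobscura, 1 from wild-type D. virilis, and 2 from D. melanogaster, namely strain FRT82 (genotype P{neoFRT}82B, which carries a recombination target site) and strain Canton-S, a wild-type laboratory stock. Each species other than D. melanogaster had 1 library and each strain had 1, so there was no replicate within a genotype, and the sex of the larvae is not given in the sources used here. The libraries held 4733792 reads in peaks in D. pseudoobscura, 3009250 in D. virilis, 1386805 in FRT82 and 3407230 in Canton-S.

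FAIRE recovers stretches of DNA from which nucleosomes have been displaced. Such stretches mark promoters and enhancers in use, which transcription factors and chromatin remodellers keep accessible, and also sites bound by insulator proteins. The eye-antennal disc is the larval epithelium that gives rise to the adult eye, antenna and head capsule, and in the wandering larva its eye field holds both dividing precursors and differentiating photoreceptors. A FAIRE signal from a whole disc is an average over all of these cells, so a peak open in every cell at a low level and one open in some cells at a high level cannot be told apart.

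The limit of 50 RPKM is first set beside all peaks of each library, as a description, since the rule used these same heights. A height of 50 RPKM or more was reached by 16.9% of all peaks in D. pseudoobscura, 16.9% in D. virilis, 15.8% in FRT82 and 16.7% in Canton-S. It was reached by 7.61% of all peaks in D. pseudoobscura and D. virilis together and by 11.4% in both D. melanogaster strains. The lowest strongly open peak ranked 3280 of 19424 in D. pseudoobscura, 3276 in D. virilis, 3065 in FRT82 and 3235 in Canton-S. Strongly open therefore meant the upper part of each library, not its summit. Of the 100 highest peaks of a library, 51 were strongly open in D. pseudoobscura, 44 in D. virilis, 54 in FRT82 and 68 in Canton-S. The remaining summit peaks missed the height or the ratio limit through another library.

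The strongly open peaks had a median height of 80.4 RPKM in D. pseudoobscura, with a range of 50.1 to 204 RPKM, against a median of 27.1 RPKM in all other peaks. In D. virilis the median was 76.7 RPKM (50.01 to 211), against 25.6 RPKM in all other peaks. In FRT82 it was 80.6 RPKM (50.1 to 213), against 27.5 RPKM in all other peaks, and in Canton-S 78.8 RPKM (50.01 to 184), against 27.2 RPKM. The 4 medians of the strongly open peaks lay close together. Each deposited height largely follows the rank of a peak within its library, since 96.5% of the strongly open values in D. pseudoobscura, 97.8% in D. virilis, 96.2% in FRT82 and 97.4% in Canton-S occur identically in another library.

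**Figure D1:**
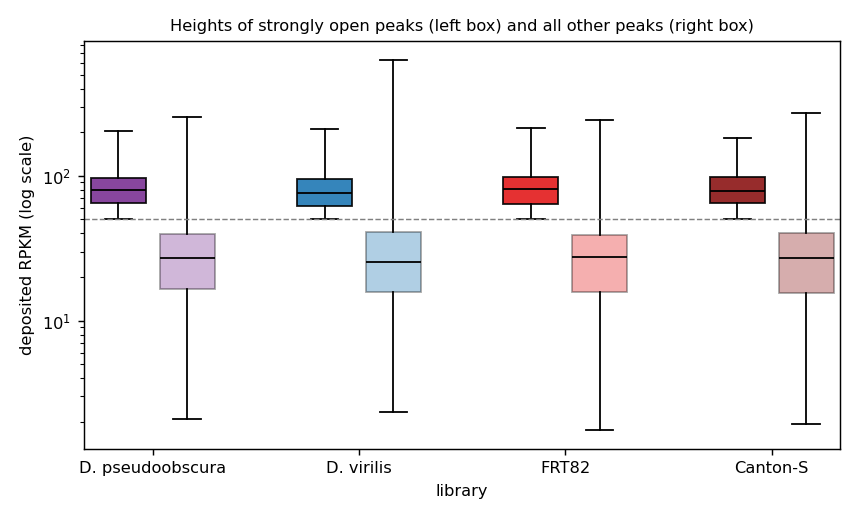
Heights in deposited RPKM (vertical axis, log scale) in the 4 libraries (horizontal axis), for the 869 strongly open peaks (left box of each pair) and all other peaks (right, paler box). Boxes span the quartiles with the median as a line, whiskers run from the lowest to the highest peak, and the dashed line is at 50 RPKM; the medians of the strongly open peaks lie between 76.7 and 80.6 RPKM and those of the other peaks between 25.6 and 27.5 RPKM.

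The reads behind these heights differed with the depth of the library. The median strongly open peak held 710 reads in D. pseudoobscura, 412 in D. virilis, 207 in FRT82 and 453 in Canton-S. Counting error alone was therefore 3.75% of the value for the median peak in D. pseudoobscura, 4.93% in D. virilis, 6.95% in FRT82 and 4.70% in Canton-S. The fewest reads in any strongly open peak were 151 in D. pseudoobscura, 101 in D. virilis, 43 in FRT82 and 108 in Canton-S, so single heights were least precise in FRT82. Together the strongly open peaks took 16.1% of the reads in peaks of D. pseudoobscura, 14.6% in D. virilis, 15.4% in FRT82 and 14.3% in Canton-S, on 7.07% of the summed peak length.

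The ratio of the largest to the smallest height, capped below 2 by the rule, had a median of 1.48 over the strongly open peaks. It was under 1.5 in 464 of them (53.4%). No single library was usually the highest. The largest value was found in D. pseudoobscura in 253 peaks, in D. virilis in 220, in FRT82 in 195 and in Canton-S in 201. The smallest was found in D. pseudoobscura in 222 peaks, in D. virilis in 276, in FRT82 in 188 and in Canton-S in 183.

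Within the limits of the rule, which used these same heights, the strains lay closer to each other than a species to their mean. These measures are unlike, since a species is set against the mean of both strains and FRT82 against a single library. Reads of the other species were also converted from their own genomes. The median absolute log2 ratio was 0.25 for D. pseudoobscura over the mean of the strains, 0.25 for D. virilis over that mean, and 0.20 for FRT82 over Canton-S. Over all peaks these medians were 0.60, 0.68 and 0.38, in the same order. The signed medians over the strongly open peaks were -0.01, -0.03 and -0.01, which the normalization between libraries and the ratio limit hold near 0. Across the 869 peaks the heights in FRT82 and Canton-S had a Spearman correlation of 0.713, while the 4 pairs of a species with a strain had 0.494 to 0.514 and D. pseudoobscura with D. virilis had 0.453. These correlations are across peaks that share their library and length and whose spread the rule had limited.

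D. pseudoobscura was above both strains in 327 strongly open peaks, below both in 340 and between them in 202. D. virilis was above both strains in 306, below both in 350 and between them in 213. Both species lay above both strains in 161 peaks and below both in 192. The normalization and the ratio limit bear on this balance too, so nothing is read from it. The standard error from counting alone had a median of 0.08 on the log2 scale for D. pseudoobscura over the strains, 0.09 for D. virilis over the strains and 0.12 for FRT82 over Canton-S.

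The strongest single region was chr3R:8841600-8841900 (coordinates here and below are those of the file, in FlyBase release 5 of D. melanogaster). It had 158 RPKM in D. pseudoobscura, 204 in D. virilis, 205 in FRT82 and 151 in Canton-S. Its smallest value, in Canton-S, was the largest smallest value of the series. Here the strains differed as much as the species, since D. virilis stood with FRT82 and D. pseudoobscura with Canton-S. The next, chr2L:18944610-18944921, had 149.5 RPKM in D. pseudoobscura, 172 in D. virilis, 151 in FRT82 and 155 in Canton-S, with counting intervals that overlapped in all 4 libraries.

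Among these strongest peaks, some were nearly level. The peak at chr2L:5293013-5293256, 243 bp long, had 151 RPKM in D. pseudoobscura (686 reads), 146 in D. virilis (373 reads), 154 in FRT82 (192 reads) and 151 in Canton-S (425 reads). It was both among the 10 strongest and among the 5 most even peaks, with a ratio of 1.05. The peak at chr2R:12716283-12716497 was similar, with 150.3 RPKM in D. pseudoobscura, 148 in D. virilis, 151 in FRT82 and 161 in Canton-S. By contrast, at chr3R:6182145-6182303, only 158 bp long, D. virilis had 211 RPKM (interval 189.5 to 235), above D. pseudoobscura at 144 (131 to 158), FRT82 at 153 (127 to 182) and Canton-S at 168 (149 to 187). D. virilis stood outside the counting intervals of the other 3 libraries there.

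The rest of the 10 strongest had smallest values of 130 to 143 RPKM. The peak at chr2L:161419-162108, the longest of the 10 at 689 bp, had 150.7 RPKM in D. pseudoobscura, 171 in D. virilis, 143 in FRT82 and 156 in Canton-S. At chr3R:12062118-12062557 D. pseudoobscura was the highest, with 181 RPKM, against 137 in D. virilis, 148 in FRT82 and 158 in Canton-S. At chr3R:26102785-26103004, D. pseudoobscura at 169 RPKM stood with Canton-S at 175, while D. virilis had 138 and FRT82 142. The 2 others, chr2L:4811490-4812014 and chr2R:2388988-2389429, had ratios of 1.22 and 1.23. Only 52 strongly open peaks held 100 RPKM or more in every library.

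**Figure D2:**
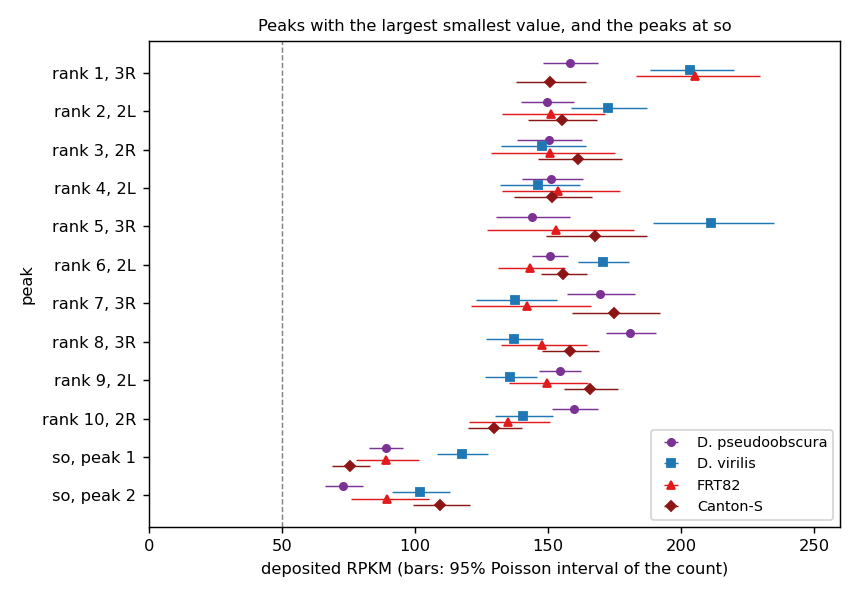
Heights in deposited RPKM (horizontal axis) of the 10 strongly open peaks with the largest smallest value, ranked downward with their chromosome arm, and of the 2 strongly open peaks at so. Symbols stand for the 4 libraries, bars are 95% Poisson intervals of the read count, and the dashed line is at 50 RPKM; D. virilis stands apart at rank 5, with 211 RPKM, while at rank 4 the 4 libraries lie between 146 and 154 RPKM.

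The most even peak was chr2R:6468954-6469633. It had 82.3 RPKM in D. pseudoobscura, 82.2 in D. virilis, 83.1 in FRT82 and 83.7 in Canton-S, a ratio of 1.02. The counting interval in FRT82 (295 reads) was 73.9 to 93.1 RPKM, so the heights lay closer together than counting could resolve. Evenness was found at low heights too. The peak at chr2R:15354810-15356598, 1788 bp long, had 53.8 RPKM in D. pseudoobscura, 55.8 in D. virilis, 55.0 in FRT82 and 54.2 in Canton-S, and chr3R:5061501-5063376 had 53.2 to 55.5 RPKM.

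The limits of the rule fell within the counting error of the peaks beside them. Just inside 50 RPKM, chr2L:20084552-20084963 had 75.9 RPKM in D. pseudoobscura, 89.2 in D. virilis, 51.2 in FRT82 and 50.01 in Canton-S. Just outside, chr3L:13932008-13932617 had 80.6 RPKM in D. pseudoobscura, 49.99 in D. virilis, 54.2 in FRT82 and 53.8 in Canton-S. Just inside the ratio limit, chr3L:14627109-14627475 had a ratio of 1.996, with D. virilis at 129 RPKM and Canton-S at 64.8. Just outside it, chr3R:25598401-25598602 had a ratio of 2.001, with D. virilis at 96.4 RPKM and Canton-S at 193. In all, 987 peaks held 50 RPKM or more in the 4 libraries, and 118 of these exceeded the ratio limit. D. virilis was the lowest library in 53 of those 118 and D. pseudoobscura in 33, against 12 for FRT82 and 20 for Canton-S. The highest library was D. pseudoobscura in 41, D. virilis in 29, FRT82 in 36 and Canton-S in 12.

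A gene was matched to strongly open peaks only through the windows that the study displays for so, pdm3, how, scrt and the Dscam region, while the displayed window of fred was not used here. The gene so (sine oculis, Dmel_CG11121) encodes a Six-family homeodomain transcription factor of the retinal determination network, without which the fly eye does not form. Its window held 10 peaks, of which 2 were strongly open. The peak at chr2R:3316898-3317380 had 89.0 RPKM in D. pseudoobscura (790 reads, interval 82.9 to 95.5), 118 in D. virilis (595 reads, 108 to 128), 89.0 in FRT82 (225 reads, 77.8 to 101) and 75.7 in Canton-S (440 reads, 68.8 to 83.1). D. virilis was highest there, outside the counting intervals of the other 3.

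The other strongly open peak at so, chr2R:3306026-3306340, had 73.1 RPKM in D. pseudoobscura (423 reads, interval 66.3 to 80.4), 102 in D. virilis (340 reads, 91.3 to 113), 89.7 in FRT82 (148 reads, 75.8 to 105) and 110 in Canton-S (405 reads, 99.2 to 121). D. pseudoobscura was lowest at this peak, whereas Canton-S was lowest at the first. The so window was the study's own example of conserved peaks from these libraries, so its peaks are no independent evidence. The windows of pdm3 (2 peaks), how (9), scrt (5) and the Dscam region (1) held no strongly open peak. The study shows pdm3 and how for open chromatin that differs between species. It shows scrt and the Dscam region for binding-site scores and reporter activity that differ, which are measures unlike the heights used here. Over all peaks 4.47% were strongly open, so nothing is read from the counts per window. The nearest to the rule was a peak at how, whose smallest value was 46.2 RPKM.

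A height that took no part in the choice was had by choosing peaks on 3 libraries and reading the library left out. It is not wholly independent of the other 3, since the authors normalized the libraries against each other and gathered the peaks from all 4. The same limits on 3 libraries gave 1244 peaks without D. pseudoobscura, and 929 of them reached 50 RPKM in D. pseudoobscura (74.7%, Wilson 95% interval 72.2 to 77.0), against 16.9% of all peaks. Without D. virilis, 936 of 1338 chosen peaks reached it in D. virilis (70.0%, 67.4 to 72.4), against 16.9% of all peaks. Without FRT82, 897 of 1016 reached it in FRT82 (88.3%, 86.2 to 90.1), against 15.8% of all peaks. Without Canton-S, 887 of 991 did in Canton-S (89.5%, 87.4 to 91.3), against 16.7%. The intervals cover the counting of peaks only, since each height comes from 1 library and neighbouring peaks are not independent.

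The heights read this way were lower in the other species than in a strain. The median height in the library left out was 68.5 RPKM in D. pseudoobscura and 63.4 in D. virilis, against 76.5 in FRT82 and 74.4 in Canton-S. Chosen peaks that fell under 25 RPKM numbered 67 in D. pseudoobscura (5.39%) and 80 in D. virilis (5.98%), against 0 of 1016 in FRT82, which allows a share of up to 0.295%, and 1 in Canton-S. The share of all peaks under 25 RPKM was not computed. Peaks that were not strongly open had medians little above that height, at 27.1 RPKM in D. pseudoobscura, 25.6 in D. virilis, 27.5 in FRT82 and 27.2 in Canton-S. When a strain was left out the other strain had taken part in the choice, whereas D. pseudoobscura and D. virilis had no second library, so the shares of species and strains rest on different choices.

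The share also followed how many other libraries were high, with the ratio limit left aside. Of peaks at 50 RPKM or more in none of the other 3 libraries, 7.72% reached it in D. pseudoobscura, and with 1, 2 or 3 other libraries at that height the share was 20.6%, 45.5% and 75.3%. In D. virilis the same steps gave 8.34%, 21.3%, 41.4% and 70.0%. In FRT82 they gave 3.72%, 21.0%, 58.0% and 89.0%, and in Canton-S 4.04%, 23.5%, 62.6% and 89.6%. The share was larger with each added library in all 4.

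**Figure D3:**
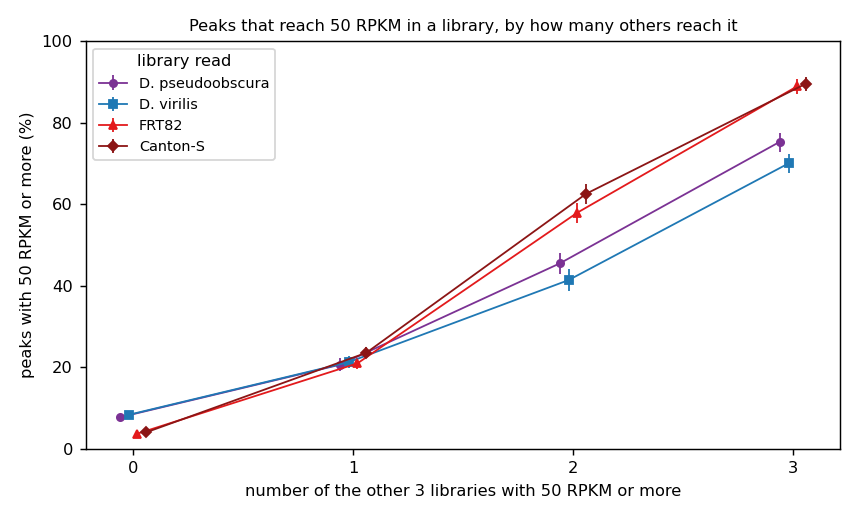
Share of peaks with 50 RPKM or more in a library (vertical axis, percent) by how many of the other 3 libraries reached 50 RPKM (horizontal axis), 1 line per library read, with Wilson 95% intervals. With all 3 others at that height the share was 75.3% in D. pseudoobscura and 70.0% in D. virilis, below 89.0% in FRT82 and 89.6% in Canton-S.

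Choosing on 2 libraries and reading the other 2 gave lower shares than choosing on 3. Of 2203 peaks chosen on the 2 strains alone, 1407 reached 50 RPKM in D. pseudoobscura (63.9%, 61.8 to 65.8, against 16.9% of all peaks). In D. virilis 1308 did (59.4%, against 16.9%). Both species reached it in 986 of the 2203 (44.8%, 42.7 to 46.8), against 7.61% of all peaks, and 869 (39.4%) met the full rule. Of 1421 peaks chosen on D. pseudoobscura and D. virilis alone, 1048 reached 50 RPKM in FRT82 (73.8%, against 15.8% of all peaks). In Canton-S 1060 reached it (74.6%, against 16.7%), and in both strains 939 did (66.1%, 63.6 to 68.5, against 11.4%).

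By chromosome arm, 95 of the 2289 peaks on X were strongly open (4.15%, 3.41 to 5.05), as were 176 of 3719 on 2L (4.73%), 197 of 3930 on 2R (5.01%), 176 of 4430 on 3L (3.97%, 3.44 to 4.59) and 223 of 4800 on 3R (4.65%). The share of the 5 large arms thus lay close to the 4.47% of all peaks. The small chromosome 4 held 2 strongly open peaks among 193 (1.04%, 0.28 to 3.70), and 0 of 63 peaks on heterochromatic or unplaced sequence were strongly open, which allows a share of up to 4.76%. On chromosome 4, chr4:528137-528984 had 59.8 RPKM in D. pseudoobscura, 62.0 in D. virilis, 62.4 in FRT82 and 77.0 in Canton-S, and chr4:93469-94059 had 80.6 in D. pseudoobscura, 93.0 in D. virilis, 71.1 in FRT82 and 56.0 in Canton-S. Neither came near the strongest peaks of X (chrX:3672186-3672377, 129 RPKM or more in every library) or 3L (chr3L:1367056-1367218, 118 RPKM or more).

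The library left out showed a larger contrast between arms. Of the peaks chosen without D. pseudoobscura, 190 of 302 on 3L reached 50 RPKM in D. pseudoobscura (62.9%, 57.3 to 68.2), against 739 of 942 on the other arms (78.5%, 75.7 to 81.0). The median height in D. pseudoobscura was 61.3 RPKM on 3L, against 73.1 RPKM on the other arms. Each of the other large arms had a higher share than 3L, with 100 of 125 on X, 79.7% on 2L, 81.1% on 2R and 76.1% on 3R. Chromosome 4 had 3 of 10 (10.8% to 60.3%). The contrast was found over all peaks too, with 13.0% of peaks on 3L reaching 50 RPKM in D. pseudoobscura, against 18.1% on the other arms. As background, the sequence of 3L lies on an arm of the X chromosome in D. pseudoobscura and on an autosome in the other 2 species. The part of X linkage in this contrast was not tested.

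In D. virilis the arm that stood apart was X. Of the peaks chosen without D. virilis, 101 of 174 on X reached 50 RPKM in D. virilis (58.0%, 50.6 to 65.1), against 835 of 1164 on the other arms (71.7%, 69.1 to 74.2). Their median height in D. virilis was 53.0 RPKM on X, against 64.6 RPKM on the other arms. Over all peaks, 14.8% of those on X reached 50 RPKM in D. virilis, against 17.2% on the other arms. In the strains no large arm fell as low, the shares being 86.5% to 92.4% in FRT82 and 86.8% to 91.0% in Canton-S.

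**Figure D4:**
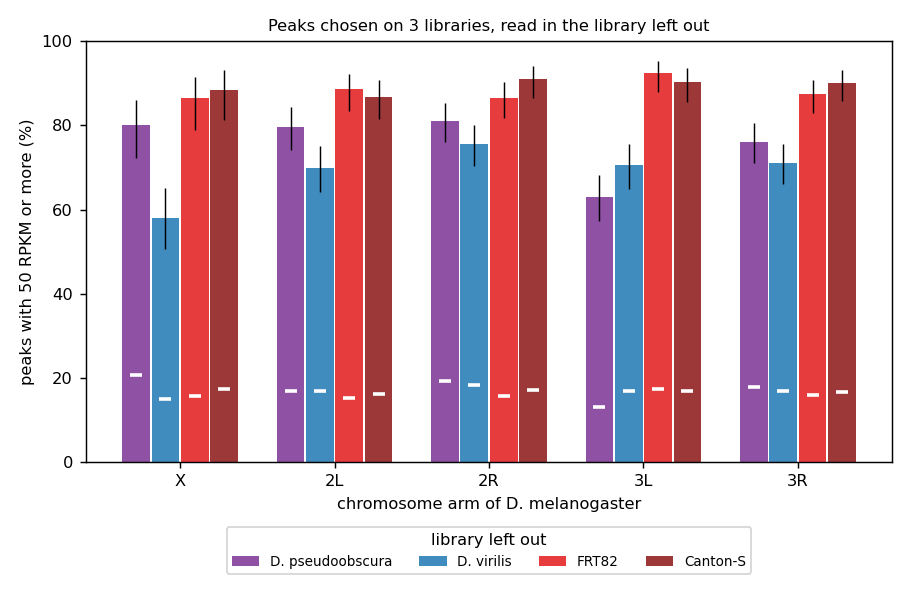
Share of peaks chosen on 3 libraries that reached 50 RPKM in the library left out (vertical axis, percent), by chromosome arm of D. melanogaster (horizontal axis), 1 bar per library left out, with Wilson 95% intervals. White marks give the share over all peaks of the arm; the lowest bars of these 5 large arms are D. virilis on X, 58.0%, and D. pseudoobscura on 3L, 62.9%.

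Strongly open peaks were longer than other peaks. Their median length was 468 bp (95% interval of the median 447 to 498), against 285 bp in all other peaks (282 to 287), and 26.8% of them were 700 bp or longer, against 7.84% of all other peaks. With all peaks split by length into 4 bins of about equal size, strongly open peaks made up 1.73% of the shortest bin, 2.39% and 4.11% of the middle bins and 9.69% of the longest. RPKM divides reads by length, and counting error bears on the ratio limit, so length is not independent of the rule. With a ratio limit of 1.5 the median length was 517 bp. The longest, chr3L:19888013-19891042, spanned 3029 bp with 59.6 RPKM in D. pseudoobscura, 57.6 in D. virilis, 64.7 in FRT82 and 58.2 in Canton-S. The shortest, chr3L:3343179-3343330, spanned 151 bp with 87.7 RPKM in D. pseudoobscura, 94.0 in D. virilis, 70.4 in FRT82 and 59.3 in Canton-S. The longest peaks were not the highest, since all 3 of the longest had smallest values of 50.8 to 57.6 RPKM.

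Strongly open peaks lay near each other. Another strongly open peak stood within 10 kb of 454 of the 869 (52.2%, 48.9 to 55.5), whereas 3847 of the 18555 other peaks had a strongly open peak that near (20.7%, 20.2 to 21.3). Within 1 kb the shares were 31.3% of strongly open peaks and 4.93% of other peaks, and within 200 bp 12.1% and 1.42%. The median distance to the nearest strongly open peak was 6597 bp from a strongly open peak, against 45828 bp from another peak. Strongly open peaks also lay in denser surroundings, with a median of 287 bp to the nearest peak of any kind, against 529 bp for other peaks.

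Chained by steps of at most 10 kb, the 869 peaks formed 578 groups, of which 415 were single peaks, 163 held 2 or more, and 15 held 5 or more, with 98 peaks among them. The largest group lay on 2L from 12003051 to 12014116 and held 10 strongly open peaks among 12 peaks in 11065 bp. Heights ran from 71.1 to 171 RPKM in D. pseudoobscura, 78.8 to 133 in D. virilis, 59.9 to 155 in FRT82 and 89.7 to 145 in Canton-S. Between the strains, FRT82 was below Canton-S at most of these 10 peaks, with log2 ratios of FRT82 over Canton-S from -0.78 to 0.20. The exceptions were chr2L:12005914-12006554 and chr2L:12013532-12014116. Neighbours differed in how D. pseudoobscura and D. virilis stood against the strains. At chr2L:12005649-12005833, D. pseudoobscura had 171 RPKM, against 111 in D. virilis, 87.3 in FRT82 and 104 in Canton-S. At chr2L:12005914-12006554, the next peak along, D. pseudoobscura had 108 RPKM and D. virilis 89.1, against 134 in FRT82 and 125 in Canton-S.

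Further along the same group, chr2L:12007119-12007735 had 151 RPKM in D. pseudoobscura, 78.8 in D. virilis, 113 in FRT82 and 145 in Canton-S. D. virilis was lowest there, but at chr2L:12011818-12011998 it had 133 RPKM, level with Canton-S at 133, against 96.3 in D. pseudoobscura and 96.4 in FRT82. At the far end, chr2L:12013532-12014116 had 124 RPKM in D. pseudoobscura, 101 in D. virilis, 155 in FRT82 and 135 in Canton-S. Both peaks of the interval that were not strongly open were higher in the other species than in the strains. Singled out after its values were seen, chr2L:12004321-12004942 had 77.0 RPKM in D. pseudoobscura, 120 in D. virilis, 47.6 in FRT82 and 42.5 in Canton-S.

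**Figure D5:**
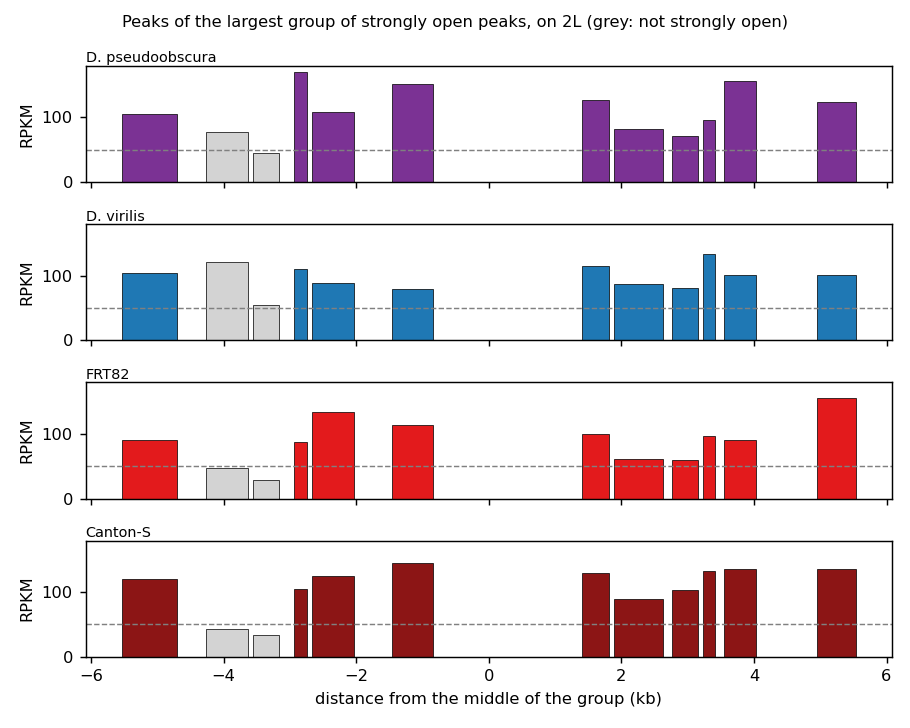
The 12 peaks of the largest group on 2L, drawn to scale by distance from the middle of the group in kb (horizontal axis), with height in deposited RPKM (vertical axis) in 1 panel per library. Bars are as wide as the peaks, coloured bars are the 10 strongly open peaks, grey bars the other 2, and the dashed line is at 50 RPKM; every coloured bar is above the line in all 4 panels, with the lowest at 59.9 RPKM in FRT82.

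The next largest group lay on X from 12630000 to 12650666, with 9 strongly open peaks among 15. Its peak chrX:12645659-12646178 had 96.2 RPKM in D. pseudoobscura, 115 in D. virilis, 142 in FRT82 and 182 in Canton-S, lower in both species than in both strains. Its first peak, chrX:12630000-12630307, had 155 RPKM in D. pseudoobscura but 85.7 in D. virilis, against 143 in FRT82 and 161 in Canton-S. Groups of 8 among 17 peaks lay on 3L from 607976 to 628498 and on 3R from 12060816 to 12081063. In the 3L group, chr3L:621655-622160 had 63.1 RPKM in D. pseudoobscura and 72.1 in D. virilis, against 106 in FRT82 and 97.1 in Canton-S, while chr3L:609150-609768 ran the other way, with 91.8 in D. pseudoobscura and 83.0 in D. virilis, against 69.7 in FRT82 and 51.6 in Canton-S. The 3R group holds chr3R:12062118-12062557, which is also among the 10 strongest peaks.

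One strongly open peak, singled out after its values were seen, lay where the coordinates of 3R in the release used begin, at chr3R:225-1274. It had 84.3 RPKM in D. pseudoobscura, 72.6 in D. virilis, 90.7 in FRT82 and 80.5 in Canton-S, with 500 to 1632 reads. The lowest library, D. virilis, was well above the limit there.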

How the data were processed

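Per the study's methods, the authors mapped the reads of each library with Bowtie2 to its own genome (release 5 of D. melanogaster, 2 of D. pseudoobscura, 1 of D. virilis), converted D. pseudoobscura and D. virilis alignments into D. melanogaster coordinates (liftOver, minMatch 0.1), and gathered the F-Seq peaks (length 200) of the separate libraries. The deposited counts are whole reads per peak from HTSeq. The deposited RPKM values were normalized by the authors within and then between libraries, by a tool not given in the sources used here. Of the values, 92.2% in D. pseudoobscura, 96.9% in D. virilis, 94.5% in FRT82 and 93.9% in Canton-S occur identically in another library. The authors left out regions with no read in a species, those under 1 RPKM and those of 150 bp or less. The deposited peaks start at 1.75 RPKM and 151 bp, so all shares refer to peaks with signal in all 3 species.

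The rule was applied to the deposited RPKM with Python 3.11.15, pandas 2.3.3 and scipy 1.17.1. Counting intervals are exact Poisson and shares have Wilson 95% intervals, and both cover counting error only. No test between groups was run. Distances are from end to start on 1 arm. Peaks were named by rule: those in the study's displayed windows other than that of fred, the 10 strongest, the 5 most even, the 3 longest and 3 shortest, the strongest of each arm, those of the 3 densest groups, and the 2 on each side of each limit. Some of these are given by their range only, and some are not given above. The peaks, lists and rules were chosen with earlier results of these data known. Alternatives were other limits, a filter of 100 reads, and RPKM from counts with matched medians, TMM (edgeR 4.0.16) or size factors (DESeq2 1.42.0). Sequence, GC content, motifs and gene features were not analysed here. The selection and spacing code was tested on simulated data.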

Additional observations from a re-analysis of the deposited data

How the results depend on the processing

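With each library left out in turn, the number of peaks meeting the rule ranged from 991 to 1338. The 869 strongly open peaks became 1648 at 40 RPKM, 496 at 60 RPKM and 464 with a ratio limit of 1.5. With RPKM computed from the counts, 719 peaks met the rule after matching medians (692 shared with the 869), 727 with TMM (706 shared), 721 with DESeq2 size factors (703 shared) and 763 with library totals alone (754 shared), the last chosen after seeing the data. The median length of 468 bp became 517 bp with a ratio limit of 1.5 and 518 bp with at least 100 reads in every library. The 52.2% with another strongly open peak within 10 kb became 57.0% at 40 RPKM, 45.4% at 60 RPKM and 34.9% with a ratio limit of 1.5, where fewer peaks were chosen, and 47.6% within 5 kb and 61.1% within 20 kb.

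The share reaching the limit in the library left out moved as follows. At 40 RPKM it was 74.7% in D. virilis, 66.9% on X and 75.8% elsewhere, and 91.8% in Canton-S. At 60 RPKM it was 66.8% in D. virilis and 67.8% on arms other than X. A ratio limit of 1.5 gave 85.6% in FRT82. After matching medians it was 62.5% in D. virilis, 47.9% on X and 64.7% elsewhere, 94.2% in FRT82 and 86.6% in Canton-S. With TMM it was 77.2% in D. pseudoobscura, 65.9% in D. virilis, 67.8% on arms other than X, 91.6% in FRT82 and 83.8% in Canton-S. With DESeq2 size factors it was 77.1% in D. pseudoobscura, 67.2% in D. virilis, 69.0% on arms other than X, 92.1% in FRT82 and 81.5% in Canton-S. Library totals alone gave 67.2% in D. virilis. The filter of 100 reads, which also reads the library left out, gave 80.7% in D. pseudoobscura, 84.8% on arms other than 3L, 74.5% in D. virilis, 76.0% on arms other than X and 92.6% in FRT82.

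For peaks chosen on the strains alone, the share in D. pseudoobscura was 61.7% at 60 RPKM, 67.2% with TMM, 67.2% with DESeq2 size factors and 74.0% with the filter of 100 reads. In D. virilis it was 64.8% at 40 RPKM, 54.9% at 60 RPKM, 52.7% after matching medians and 67.7% with the filter. In both species it was 48.3% at 40 RPKM, 41.2% at 60 RPKM, 39.8% after matching medians and 55.3% with the filter. The cause of these shifts was not tested.

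Over 10 settings, the deposited one included, both strains had larger shares than both other species in 10. In every setting a strain left out was read on peaks chosen with the other strain, so this order rests on unlike choices. The share in D. pseudoobscura was lower on 3L than elsewhere in 10 (by 8.4 to 17.2 percentage points). That in D. virilis was lower on X than elsewhere in 10 (by 8.9 to 17.2). The order of the strains was not stable, with Canton-S above FRT82 in 5. No paired analysis was possible because D. pseudoobscura, D. virilis and each strain had a single library. FRT82, the shallowest library, limits single heights most.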
